A study of Homo sapiens with 24 samples.

Results

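The genes described here are the collagens of the series, taken as every gene symbol made of COL, a number, A and a number in either count table. There were 44 such genes. The organoid table listed all 44 of its 61544 genes, and 42 of them were among the 19704 genes tested. The NPC table listed 30 of 10221 genes, and 29 of them were among the 9860 tested.

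Sequencing of poly(A)-selected RNA, primed with random hexamers, was carried out on cells made from the embryonic stem cell line H9. Neural progenitor cells (NPCs) and day 30 cerebral organoids were compared, each in 3 groups. The groups sh1 and sh4 carried a lentiviral short hairpin RNA against KDM2A and are labelled as KDM2A knockdown (their treatment label reads siRNA), and the group NC carried a scrambled hairpin and is labelled as wild type. All groups were infected as stem cells at a multiplicity of infection of 20 and selected with 1 µg/ml puromycin, so that the NC libraries share the virus and the drug. Each NPC group had 5 libraries and each organoid group 3. The labels do not say whether infected cells were kept as pools or clones or whether libraries came from separate cultures, so the p-values reflect nothing but the spread among these libraries, which could be technical.

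Collagens are secreted or membrane-bound proteins whose chains wind into trimeric helices. Fibrillar collagens form the fibres of connective tissue, type IV collagens form the sheet of basement membranes, and the FACIT collagens sit on the surface of fibrils. In the developing brain, basement membranes line the pial surface and the vessels, and fibrillar collagens are known mainly from the meninges, the vessel walls and other mesenchyme rather than from neural cells. KDM2A is a demethylase of histone H3 lysine 36, and its zinc finger CXXC domain is known to bind unmethylated CpG dinucleotides.

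The target itself separated the groups in the NPCs and not in the organoids. KDM2A had 98.1, 89.2, 94.7, 89.1 and 89.1 CPM (counts scaled to a common total per library) in sh1 NPCs, 92.6, 95.7, 102, 93.8 and 91.3 CPM in sh4 NPCs and 198, 183, 202, 185 and 163 CPM in NC NPCs. No sh1 or sh4 NPC library reached up to an NC library (log2 fold change -1.02 for sh1 and -0.97 for sh4). In the organoids KDM2A had 110.5, 117 and 103 CPM in the libraries labelled sh1, 105, 95.4 and 103 CPM in those labelled sh4 and 99.8, 105 and 96.6 CPM in those labelled NC. It was not lower with either hairpin label (log2 fold change 0.14 ± 0.07 and 0.01 ± 0.07, standard error, edgeR's quasi-likelihood test, adjusted p = 0.127 and 0.926), so the target's level does not check the organoid labels and those libraries are named by their label.

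Collagen transcripts as a whole were several times more abundant in the organoids labelled sh1 and sh4 than in those labelled NC. They took 2.81 to 2.95% of all counts in the libraries labelled sh1, 4.32 to 5.21% in those labelled sh4 and 0.641 to 0.855% in those labelled NC, with no overlap between groups. In the NPCs they took 0.822 to 0.976% of the listed genes' counts in sh1, 0.993 to 1.12% in sh4 and 1.01 to 1.12% in NC. By share the sh1 NPC libraries lay below the NC libraries and sh4 and NC overlapped, while after scaling the summed CPM of sh1 (8485 to 10003) and NC (9598 to 10501) overlapped too. In bulk libraries, fewer cells of a type and less RNA per cell cannot be told apart.

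As in the study's own design, calls needed an adjusted p under 0.05 and a log2 fold change of 1 or more in either direction, and "rose" or "fell" is used of such calls. In the organoids 25 of 42 collagens rose with the label sh1, where 12.1% of all genes tested were called higher, and none fell, where 7.92% were called lower. With the label sh4, 24 rose and 1 fell, where 20.0% of all genes were called higher and 15.5% lower. With both labels 21 of 42 collagens rose (10.2% of all genes tested), and none fell with both (6.18% of all genes). The median log2 fold change over the tested collagens was 1.22 with sh1 and 1.48 with sh4, beside 0.02 and -0.01 over all genes. Both labels were compared with the same 3 NC libraries, so their calls are not independent. Scaling by library size alone, which moved the median of all genes to -0.28 with sh4, left 24 collagens higher with sh1 and 22 higher and 2 lower with sh4, while the share of higher genes among all called genes with sh4 was 43.3% in place of 56.4%.

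**Figure D1:**
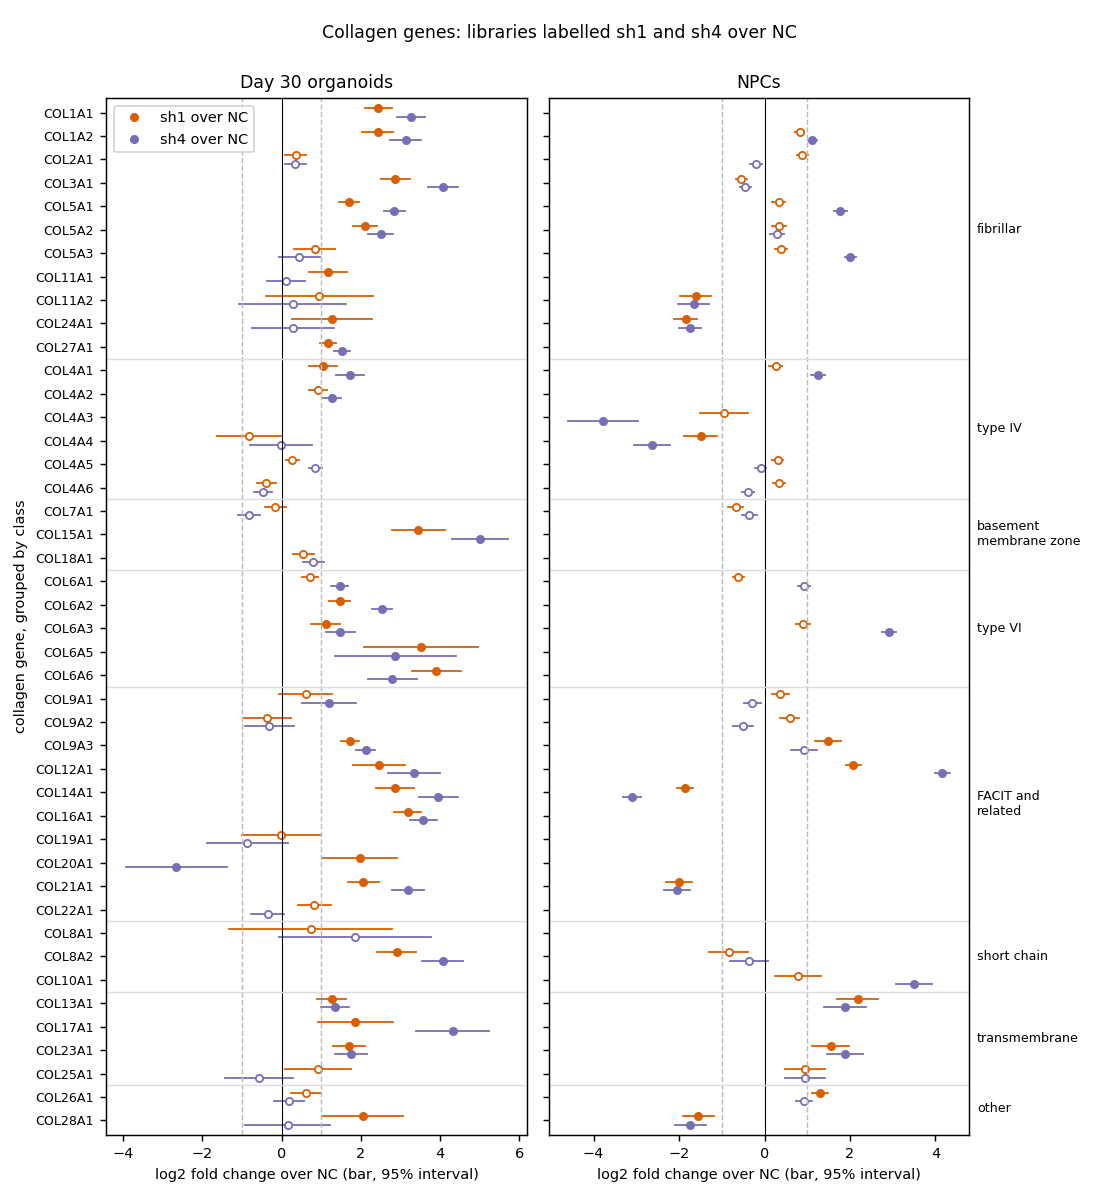
Log2 fold change over NC (horizontal axis) of each collagen gene, by class from top to bottom, with sh1 in orange and sh4 in purple; organoids are on the left and NPCs on the right. Bars are 95% intervals, filled points passed the call and dashed lines mark a log2 fold change of 1 in either direction; in the organoids 21 genes have both points filled on the right, and in the NPCs 3 are filled on the right and 6 on the left.

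The fibrillar collagens carried most of the collagen RNA, and 6 of the 11 rose with both organoid labels (10.2% of all genes tested). Their summed level was 21973 ± 1245 CPM in the libraries labelled sh1, 43844 ± 4621 CPM in those labelled sh4 and 3889.5 ± 832 CPM in those labelled NC (SD, n = 3 each). COL3A1, the chain of type III collagen of soft tissues and vessel walls, had 10470.5, 11251 and 11997 CPM in the libraries labelled sh1, 27616, 22352 and 27846 CPM in those labelled sh4 and 1427, 1931 and 1264 CPM in those labelled NC. COL3A1 lies on chromosome 2 at 188974320 to 189012746 (GRCh38, plus strand), next to COL5A2 at 189031896 to 189225312 (minus strand). The 3 groups did not overlap, with sh4 highest and NC lowest. The log2 fold change was 2.87 ± 0.16 with sh1 and 4.07 ± 0.17 with sh4 (standard error, edgeR's quasi-likelihood test, adjusted p = 2.84e-06 and 2.86e-07).

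The chains of type I collagen, the main fibre of skin and bone, are encoded on chromosome 17 (COL1A1, 50183289 to 50201632, minus strand) and chromosome 7 (COL1A2, 94394561 to 94431232, plus strand), and both rose. COL1A1 had 3594, 3409 and 3763 CPM in the libraries labelled sh1, 6316, 5720.4 and 6973 CPM in those labelled sh4 and 616, 823 and 541 CPM in those labelled NC. COL1A2 had 4611, 4234 and 5208 CPM with the label sh1, 7669.9, 6879 and 8415 CPM with sh4 and 748, 1136 and 739 CPM with NC. For both chains the 3 groups stood apart in the same order, and the log2 fold changes were 2.44 and 3.26 for COL1A1 and 2.42 and 3.13 for COL1A2. Per kilobase of annotated exon, COL1A1 reached 366 ± 18.03 CPM with sh1, 645 ± 63.8 CPM with sh4 and 67.2 ± 14.9 CPM with NC (SD). COL1A2 reached 419.9 ± 44.1, 686 ± 68.9 and 78.4 ± 20.3 CPM per kilobase in sh1, sh4 and NC, so that the chains' levels were close in each group.

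Type V collagen, which is built into type I fibrils and is known to limit their width, followed the same order. COL5A1 had 1069.9, 1037 and 1068 CPM in the libraries labelled sh1, 2439, 2119.8 and 2469 CPM in those labelled sh4 and 331, 375 and 273 CPM in those labelled NC. COL5A2 had 887, 916 and 906 CPM with sh1, 1218, 1104 and 1240.3 CPM with sh4 and 183, 265 and 183 CPM with NC. All 3 groups were again apart for both chains, with log2 fold changes of 1.70 and 2.84 for COL5A1 and 2.10 and 2.50 for COL5A2. The third chain, COL5A3, had 7.24 to 10.7 CPM with sh1, 4.99 to 8.74 CPM with sh4 and 4.53 to 5.62 CPM with NC and was called with neither label. COL27A1, a fibrillar collagen known from cartilage, had 70.7, 80.8 and 65.2 CPM with sh1, 98.4, 86.01 and 91.8 CPM with sh4 and 32.98, 33.1 and 30.3 CPM with NC and rose with both (1.17 and 1.52).

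COL2A1, COL11A1, COL11A2 and COL24A1 were not called with both labels. COL2A1, the chain of cartilage and notochord, had 144 to 161 CPM with sh1, 135 to 175 CPM with sh4 and 101 to 134 CPM with NC. Every library labelled sh1 or sh4 lay above every NC library, but its log2 fold changes of 0.36 and 0.35 stayed under the call. COL11A1, whose product joins type II fibrils, rose with sh1 (1.17) and had a log2 fold change of 0.11 ± 0.21 with sh4, whose sign turned under library size scaling. COL11A2 varied widely within labels, with 64.5, 47.8 and 45.8 CPM in those labelled sh1, 8.69, 68.3 and 21.7 CPM in sh4 and 14.7, 38.1 and 28.6 CPM in NC. Every library labelled sh1 lay above every NC library, the sh4 range spanned both, and neither log2 fold change was called (0.96 ± 0.60 and 0.28 ± 0.60). COL24A1 was called higher with sh1 at 4.82 to 9.99 CPM, against 2.26 to 3.52 CPM with NC, and that call was lost when any of 6 of the 9 libraries was left out (sh1 replicate 1 or 2, sh4 replicate 2, or any NC replicate) and with library size scaling.

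The summed level of the 8 cartilage markers, among them SOX9 and ACAN, was 119 to 173 CPM with sh1, 337 to 436 CPM with sh4 and 311 to 338 CPM with NC, so that sh1 was lowest. Its part in these levels was not tested.

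**Figure D2:**
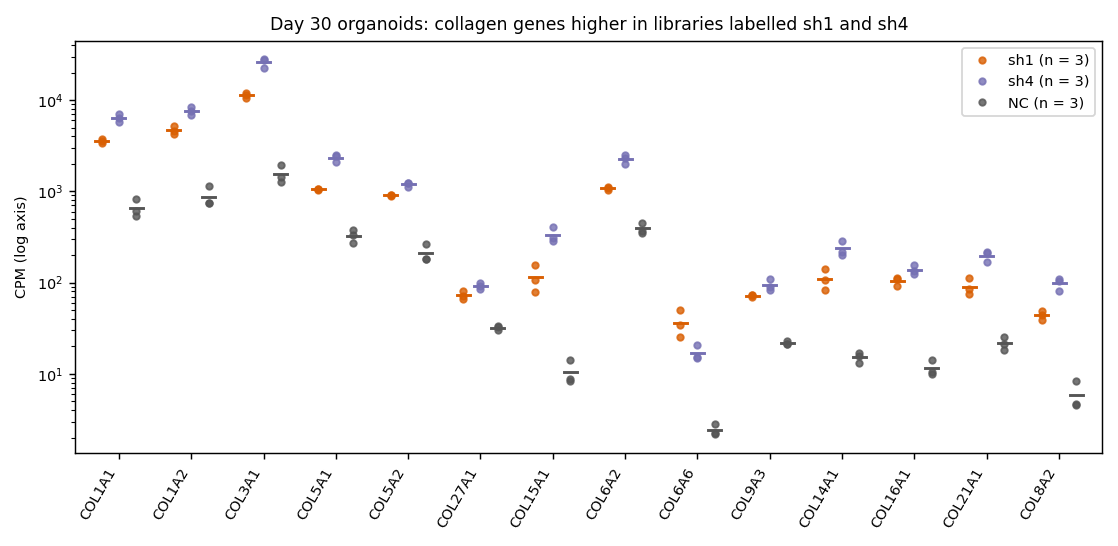
CPM on a log axis of 14 collagen genes that rose with both organoid labels, one point for each library and a bar at the group mean, in the order sh1 (orange), sh4 (purple) and NC (grey). No point of the libraries labelled sh1 or sh4 overlaps the NC points of its gene, and COL3A1 reaches 27846 CPM in a library labelled sh4.

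Among basement membrane collagens the type IV chains had smaller log2 fold changes than COL15A1. The 6 type IV genes lie in head-to-head pairs, and each pair shares the stretch between its starts. COL4A1 and COL4A2 on chromosome 13 encode the chains found in nearly all basement membranes. COL4A3 and COL4A4 on chromosome 2, and COL4A5 and COL4A6 on chromosome X, encode the chains of more specialised membranes such as that of the kidney filter. The shared stretches are shown because the neighbours of a pair can be compared over the same bases. All are RefSeq promoter sequence of build GRCh38.p14, written 5′ to 3′ on the strand of the gene named (plus strand for the COL4A2 and COL4A1 stretch), and capitals mark CpG dinucleotides. The 126 bases between the COL4A2 and COL4A1 starts (chr13:110307158-110307283) hold 20 CpG. The starts of COL4A3 and COL4A4 are 418 bases apart with 32 CpG, and those of COL4A5 and COL4A6 379 bases apart with 12 CpG; for these pairs the 250 bases before each start are given, COL4A3 at chr2:227164374-227164623 (plus strand), COL4A4 at chr2:227164206-227164455 (minus strand), COL4A5 at chrX:108439588-108439837 (plus strand) and COL4A6 at chrX:108439459-108439708 (minus strand), so that the sequences of a pair overlap as reverse complements.
COL4A2/COL4A1: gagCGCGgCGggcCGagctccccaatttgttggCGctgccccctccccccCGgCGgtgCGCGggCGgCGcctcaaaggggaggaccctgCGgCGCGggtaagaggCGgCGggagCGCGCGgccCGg
COL4A3: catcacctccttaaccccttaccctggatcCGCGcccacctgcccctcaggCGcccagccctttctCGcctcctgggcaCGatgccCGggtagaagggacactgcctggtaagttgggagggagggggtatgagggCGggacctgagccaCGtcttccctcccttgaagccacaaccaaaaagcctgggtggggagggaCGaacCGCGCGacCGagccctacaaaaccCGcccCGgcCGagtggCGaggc
COL4A4: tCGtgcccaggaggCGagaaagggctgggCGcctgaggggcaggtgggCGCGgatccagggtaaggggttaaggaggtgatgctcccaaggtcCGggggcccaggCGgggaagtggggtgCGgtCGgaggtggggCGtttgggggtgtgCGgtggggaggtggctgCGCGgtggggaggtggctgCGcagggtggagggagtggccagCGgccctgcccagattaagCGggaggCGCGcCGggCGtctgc
COL4A5: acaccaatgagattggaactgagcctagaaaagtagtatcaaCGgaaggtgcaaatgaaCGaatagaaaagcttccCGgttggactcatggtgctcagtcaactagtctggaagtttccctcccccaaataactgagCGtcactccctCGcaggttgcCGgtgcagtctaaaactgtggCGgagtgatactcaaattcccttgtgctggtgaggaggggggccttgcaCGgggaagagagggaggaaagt
COL4A6: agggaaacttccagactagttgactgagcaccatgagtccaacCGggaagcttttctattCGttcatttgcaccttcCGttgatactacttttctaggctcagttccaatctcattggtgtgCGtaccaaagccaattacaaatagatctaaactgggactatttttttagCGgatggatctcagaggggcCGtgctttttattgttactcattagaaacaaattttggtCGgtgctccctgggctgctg

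Within the first pair the chains stayed close. COL4A1 had 309, 329 and 290.3 CPM in the organoids labelled sh1, 546, 462 and 485 CPM in those labelled sh4 and 124, 132 and 194 CPM in those labelled NC. COL4A2 had 399, 436 and 349 CPM with sh1, 519.6, 485 and 497 CPM with sh4 and 185, 207 and 233 CPM with NC. In both genes every library labelled sh1 or sh4 lay above every NC library. COL4A1 rose with both labels (1.04 and 1.73), although the sh1 call was lost without sh1 replicate 2 or without NC replicate 1 or 2, and COL4A2 rose with sh4 (1.27) and had 0.92 with sh1, which reached 1.01 without NC replicate 3. The sh4 call of COL4A2 was lost with library size scaling. In GENCODE 29, unlike at the RefSeq starts above, the extents of COL4A1 (110148963 to 110307233) and COL4A2 (110305812 to 110513209) overlap, and the sources used here do not state whether counting used the strand, so reads there cannot be assigned to one of them.

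The third pair parted. COL4A5 had 305, 287 and 299 CPM with sh1, 459, 405 and 463 CPM with sh4 and 239, 262 and 235 CPM with NC, while COL4A6 had 175, 159.9 and 203 CPM with sh1, 155, 172 and 181 CPM with sh4 and 224, 261 and 218 CPM with NC. The libraries labelled sh1 and sh4 lay above NC in one gene and below NC in its neighbour, with log2 fold changes of 0.27 ± 0.07 and 0.85 ± 0.07 for COL4A5 and -0.39 ± 0.11 and -0.47 ± 0.11 for COL4A6. These 4 differences had adjusted p-values of 0.0125, 7.20e-06, 0.0135 and 0.00295 in edgeR's quasi-likelihood test, and none reached the fold of the call. The second pair was near its floor in the organoids. COL4A3 had 0, 2 and 0 counts with sh1, 4, 13 and 5 with sh4 and 1, 6 and 1 with NC and was not tested, and COL4A4 had 0.657 to 1.21 CPM with sh1, 1.103 to 2.35 CPM with sh4 and 1.41 to 1.99 CPM with NC and was not called.

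COL15A1 and COL18A1 encode collagens of the basement membrane zone, and a fragment of the COL18A1 product is endostatin, an inhibitor of vessel growth. COL15A1 had 107, 79.3 and 157 CPM in the libraries labelled sh1, 312, 283 and 409.7 CPM in those labelled sh4 and 8.38, 14.2 and 8.73 CPM in those labelled NC. The groups did not overlap, and the log2 fold changes were 3.45 ± 0.30 and 5.00 ± 0.31, the sh4 value being the largest of the 42 genes (edgeR, adjusted p = 2.16e-05 and 1.16e-06). COL18A1 had 441, 362 and 373 CPM with sh1, 489, 452 and 451 CPM with sh4 and 221, 279 and 301 CPM with NC, also without overlap, at log2 fold changes of 0.55 and 0.80 that did not reach the call. COL7A1, the anchoring fibril collagen below epithelia, had 34.8 to 39.0 CPM with sh1, 20.5 to 28.1 CPM with sh4 and 38.7 to 43.5 CPM with NC. It was the one collagen whose state changed to a call of lower with sh4 under library size scaling (-1.09, beside -0.82 with the main scaling).

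The type VI collagens form beaded filaments around cells. With both labels 4 of 5 genes rose (10.2% of all genes tested), and with sh4 all 5 (20.0%), the rare COL6A5 counted in both. COL6A2 had 1103, 1090.2 and 1042 CPM with sh1, 2329, 1984 and 2478 CPM with sh4 and 368, 454 and 351 CPM with NC. Its neighbour on chromosome 21, COL6A1, had 1094, 1038 and 1057 CPM with sh1, 1833, 1637 and 1919.8 CPM with sh4 and 642, 726 and 579 CPM with NC. All 3 groups were apart in both genes, but the steps were larger in COL6A2 (1.46 and 2.53) than in COL6A1 (0.71 and 1.47). Per kilobase of exon, COL6A2 stood at 200.2 ± 5.91, 420.2 ± 47.0 and 72.6 ± 10.3 CPM in sh1, sh4 and NC, and COL6A1 at 199 ± 5.31, 336 ± 27.1 and 121 ± 13.8 CPM. Thus COL6A1 was the higher of the neighbours with NC, both were level with sh1, and COL6A2 had the higher mean with sh4, an order that was not tested.

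COL6A3, the chain that joins these in the classic type VI trimer, had 703, 904 and 632 CPM with sh1, 1034, 933 and 932 CPM with sh4 and 329.7, 424 and 282 CPM with NC. Its log2 fold changes were 1.11 and 1.49, and the sh1 value was below 1 without sh1 replicate 2 or without NC replicate 3. COL6A6, a chain that can take the place of COL6A3, had 34.01, 49.7 and 25.3 CPM with sh1, 14.8, 15.2 and 20.5 CPM with sh4 and 2.26, 2.82 and 2.17 CPM with NC. Here sh1 was the highest group, and all 3 were apart (3.90 with sh1, 2.79 with sh4). COL6A5 was rare, with 12, 18 and 21 counts in the libraries labelled sh1, 9, 9 and 11 in those labelled sh4 and 0, 1 and 3 in those labelled NC. Its NC counts were under the filter's minimum count of 10, so it was tested only through the libraries where it was higher. A fall could not have been called, yet it counts among the 21 collagens that rose with both labels.

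The FACIT collagens and their relatives rose with both labels in 5 of 10 genes (10.2% of all genes tested). COL12A1 and COL14A1 encode collagens that coat type I fibrils. COL12A1 had 56.5, 38.5 and 32.8 CPM with sh1, 83.9, 80.5 and 70.2 CPM with sh4 and 4.85, 6.87 and 11.5 CPM with NC, and COL14A1 had 108, 141 and 81.9 CPM with sh1, 289, 202 and 218 CPM with sh4 and 16.9, 15.6 and 13.1 CPM with NC. In both genes the groups were apart, with sh4 highest, at log2 fold changes of 2.46 and 3.34 for COL12A1 and 2.86 and 3.96 for COL14A1. COL16A1, a minor fibril-bound collagen, had 113, 110.1 and 91.8 CPM with sh1, 133, 123 and 156 CPM with sh4 and 10.6, 14.1 and 9.96 CPM with NC. COL21A1, another of the class, had 75.6, 111 and 84.9 CPM with sh1, 214, 167 and 211 CPM with sh4 and 21.5, 25.3 and 18.2 CPM with NC. Both lay above NC in every library, and the smallest of their log2 fold changes was 2.06.

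Type IX collagen, which decorates cartilage fibrils, was split. COL9A3 had 72.5, 70.1 and 72.5 CPM with sh1, 90.2, 82.96 and 110.3 CPM with sh4 and 21.3, 22.8 and 21.1 CPM with NC and rose with both labels (1.72 and 2.12). COL9A1 rose with sh4 (1.19, and under the call without sh4 replicate 3 or with library size scaling), had 0.61 with sh1, and its sh1 and sh4 values were not called apart (-0.59 ± 0.30). COL9A2 was called with neither (-0.37 and -0.31). COL20A1 was the one collagen called in opposite directions, with 4.23 to 6.85 CPM with sh1, 0 to 0.299 CPM with sh4 and 1.16 to 1.46 CPM with NC. Its counts with sh4 were only 0, 5 and 5, and calls in opposite directions made up 0.218% of all genes tested.

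The remaining classes held few of the counts. COL8A2, a short chain collagen known from the corneal endothelium, had 38.7, 44.3 and 48.5 CPM with sh1, 104, 80.8 and 110.4 CPM with sh4 and 4.52, 8.31 and 4.69 CPM with NC, 3 groups apart. Its partner chain COL8A1 had 12, 12 and 3 counts with sh1, 3, 30 and 21 with sh4 and 1, 11 and 4 with NC and was not called, but passed the call with sh4 without sh4 replicate 1 or NC replicate 2. Of the 4 transmembrane collagens, COL13A1, COL17A1 and COL23A1 rose with both labels (10.2% of all genes tested). COL23A1 had 41.2, 41.5 and 30.98 CPM with sh1, 33.6, 34.8 and 48.3 CPM with sh4 and 10.1, 13.3 and 11.3 CPM with NC, and COL13A1, found at cell adhesions and the neuromuscular junction, had 28.02 to 39.7 CPM with sh1, 32.7 to 44.8 CPM with sh4 and 13.6 to 15.9 CPM with NC. In these the sh1 and sh4 ranges overlapped and both lay above NC. COL17A1, a hemidesmosome collagen of epithelia, had 1.92 to 4.598 CPM with sh1, 15.6 to 22.2 CPM with sh4 and 0.527 to 1.49 CPM with NC, at log2 fold changes of 1.86 and 4.32.

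The 8 epithelial markers summed to 542 to 739 CPM with sh1, 2059.9 to 2762 CPM with sh4 and 821 to 945 CPM with NC, and their part in the COL17A1 levels was not tested. COL26A1, a gene outside these classes, had 58.6, 72.98 and 43.3 CPM with sh1, 39.2, 46.9 and 44.7 CPM with sh4 and 35.7, 35.7 and 42.5 CPM with NC and was not called. COL28A1 rose with sh1 (2.05), where 1 library at 10.7 CPM stood above the other two. COL19A1 (1.43 to 2.08, 0.519 to 1.26 and 1.01 to 2.93 CPM in sh1, sh4 and NC), COL22A1 (40.8 to 56.5, 18.8 to 28.6 and 23.8 to 31.8 CPM) and COL25A1 (28.6 to 50.7, 5.06 to 17.7 and 19.3 to 20.9 CPM) were called with neither label over NC, and COL10A1 had at most 5 counts in any organoid library and was not tested.

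**Figure D3:**
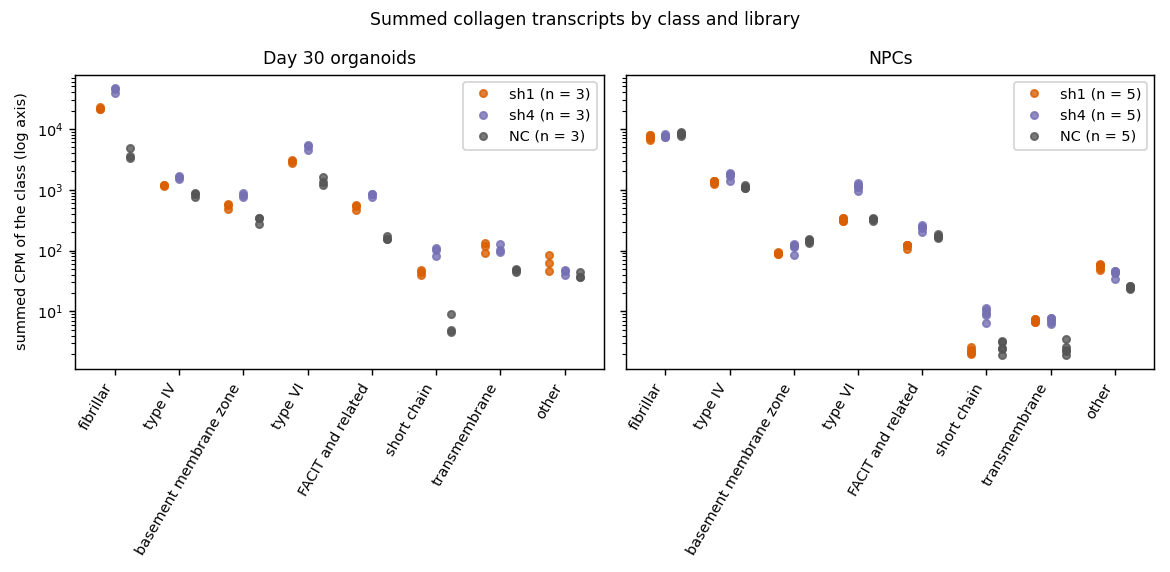
Summed CPM of each collagen class on a log axis, one point for each library, in the order sh1 (orange), sh4 (purple) and NC (grey), with organoids on the left and NPCs on the right. In the organoids the points of sh1 and sh4 lie above NC without overlap in every class except the other collagens, where sh4 overlaps NC. In the NPCs the fibrillar points of the 3 groups run together.

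The hairpin labels also differed from each other in the organoids. Between sh1 and sh4, 14 of 42 collagens were called, where 19.0% of all genes were. In sh1 6 were higher and 8 lower, where 7.83% of all genes were called higher and 11.2% lower. COL5A1 differed by -1.15 ± 0.11, COL6A2 by -1.07 ± 0.11 and COL3A1 by -1.21 ± 0.15 on the log2 scale, sh1 over sh4, and COL20A1 by 4.64 ± 0.53. With scaling by library size alone 8 were called, and 2 of them, COL15A1 (-1.55 with the main scaling) and COL17A1 (-2.47), were lower in sh1. The other 6 called lower with the main scaling, COL3A1, COL5A1, COL6A2, COL8A2, COL14A1 and COL21A1, then had log2 differences of -0.97 to -0.84, under the fold of the call. COL6A6, COL11A1, COL22A1, COL25A1 and COL28A1 were higher in sh1 than in sh4. The COL6A6 call was lost without sh1 replicate 2, that of COL11A1 without sh1 replicate 2 or sh4 replicate 1, that of COL14A1 (-1.10) without sh1 replicate 3 or sh4 replicate 1, and that of COL6A2 without sh4 replicate 3.

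Promoters of genes that rose can be set beside the type IV stretches above. The RefSeq promoter table held 32 of the 44 collagens. Only the first listed start of each gene was used, and other starts of a gene were left out. In the 250 bases before that start, the median number of CpG was 16 over these 32. It was 11 over all 27305 promoters kept in this way. Of the 21 collagens that rose with both organoid labels, 14 were among these 32, a different set from the 14 genes plotted by library above. COL1A1, COL1A2, COL3A1, COL5A2, COL6A5, COL9A3 and COL14A1 also rose with both but had no promoter listed, so these counts leave them out. The median number of CpG was 20 in the 14 with a promoter listed. It was 11.5 in the 16 others of the 32 that were tested in the organoids. The GC box (GGGCGG, searched on both strands) was present in 11 of the 14 and in 6 of the 16, and in 42.3% of all promoters. The CCAAT box (CCAAT, both strands) was present in 2 of the 14, 7 of the 16 and 33.0% of all promoters, and the TATA box (TATAAA, both strands) in 4, 1 and 11.1%. These are counts of letters in a window and not of bound sites, and the CpG within a GC box is counted in both measures.

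Of the 14, 3 are shown, a fibrillar, a type VI and a short chain collagen, written as above with CpG in capitals. They do not stand for all classes that rose, and all 3 lie above the median of 20 CpG. The 14 run from 1 CpG (COL17A1) to 38 (COL15A1 and COL4A1). COL5A1 (chr9:134641553-134641802, plus strand) holds 29 CpG and 2 GC boxes, COL6A2 (chr21:46097862-46098111, plus strand) 28 CpG, 4 GC boxes and 1 TATA box, and COL8A2 (chr1:36125223-36125472, minus strand) 35 CpG and 7 GC boxes.
COL5A1: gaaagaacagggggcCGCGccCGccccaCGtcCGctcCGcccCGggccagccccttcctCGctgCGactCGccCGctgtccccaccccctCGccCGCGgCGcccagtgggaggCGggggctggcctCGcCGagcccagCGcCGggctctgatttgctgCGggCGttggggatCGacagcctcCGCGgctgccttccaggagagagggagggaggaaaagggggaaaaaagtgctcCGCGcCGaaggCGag
COL6A2: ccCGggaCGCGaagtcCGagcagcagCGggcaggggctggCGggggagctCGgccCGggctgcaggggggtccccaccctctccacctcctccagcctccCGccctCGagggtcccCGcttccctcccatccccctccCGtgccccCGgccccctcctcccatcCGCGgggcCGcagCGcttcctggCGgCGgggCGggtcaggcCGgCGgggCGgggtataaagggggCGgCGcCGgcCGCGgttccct
COL8A2: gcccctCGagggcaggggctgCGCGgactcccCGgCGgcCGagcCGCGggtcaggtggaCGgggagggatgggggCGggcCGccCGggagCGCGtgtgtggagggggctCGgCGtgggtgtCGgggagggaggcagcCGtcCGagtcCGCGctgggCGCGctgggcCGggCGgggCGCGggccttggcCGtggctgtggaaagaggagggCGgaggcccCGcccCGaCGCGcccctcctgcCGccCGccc

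A high CpG count was not limited to genes that rose. COL18A1 with 37 CpG and 9 GC boxes and COL25A1 with 32 CpG were called with neither label, while COL17A1 with 1 CpG rose with both. COL4A5 and COL4A6 hold 8 and 7 CpG and no GC box, and COL4A1 and COL4A2 hold 38 and 40 CpG.

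The NPCs gave another picture, with single collagens moving in both directions. The NPC table appears limited to genes that differ between sh1 and NC, since 99.3% of its tested genes had an adjusted p under 0.05 in that comparison, and its CPM are relative to the listed genes. The NPC p-values of sh1 over NC are therefore not independent of how its genes appear to have been chosen. In the NPCs, all genes means the tested genes of this selection and not of the genome. With sh1 5 collagens rose and 6 fell of 29 tested, where 6.31% of all genes were called higher and 12.1% lower. With sh4 9 rose and 7 fell, where 6.55% were called higher and 11.6% lower. With both hairpins 3 rose (COL12A1, COL13A1 and COL23A1) and 6 fell (COL11A2, COL24A1, COL4A4, COL14A1, COL21A1 and COL28A1), where 4.62% of all genes were called higher with both and 8.48% lower. The median log2 fold change of the 29 was 0.34 with sh1 and -0.09 with sh4, beside 0.11 and 0.03 over all genes tested. The genes COL1A1, COL4A2, COL6A2, COL6A6, COL8A1, COL11A1, COL15A1, COL16A1, COL17A1, COL18A1, COL19A1, COL20A1, COL22A1 and COL27A1 were not analysed here in the NPCs.

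COL12A1 showed the widest rise of the 29 with sh4. It had 46.6, 50.8, 45.9, 48.4 and 45.7 CPM in sh1, 203, 204, 165, 212 and 224 CPM in sh4 and 10.6, 10.4, 11.1, 12.3 and 11.7 CPM in NC. The 3 groups were far apart, with log2 fold changes of 2.08 ± 0.08 with sh1 and 4.16 ± 0.08 with sh4 (edgeR, adjusted p = 3.94e-14 and 4.24e-18). COL13A1 had 2.68, 2.85, 2.52, 2.97 and 3.75 CPM in sh1, 2.14, 2.74, 1.65, 2.27 and 3.29 CPM in sh4 and 0.678, 0.360, 0.655, 0.607 and 0.939 CPM in NC, and COL23A1 had 1.41, 2.09, 1.79, 1.74 and 1.49 CPM in sh1, 2.69, 1.86, 1.97, 2.11 and 2.11 CPM in sh4 and 0.730, 0.669, 0.291, 0.552 and 0.574 CPM in NC. Both were rare in the NPCs, yet no sh1 or sh4 library reached down to an NC library.

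COL14A1, the near relative of COL12A1, went the other way. It had 39.8, 37.9, 42.4, 37.2 and 27.8 CPM in sh1, 16.6, 14.7, 13.9, 15.7 and 17.2 CPM in sh4 and 119.6, 139, 125, 138 and 148 CPM in NC, again with 3 groups apart and log2 fold changes of -1.86 ± 0.09 and -3.10 ± 0.10. COL24A1 had 13.7, 15.04, 15.3, 12.1 and 10.1 CPM in sh1, 19.3, 10.97, 14.6, 13.5 and 12.3 CPM in sh4 and 52.6, 44.7, 49.3, 42.9 and 48.1 CPM in NC, and sh1 and sh4 overlapped far below NC. COL21A1 had 1.07, 1.48, 1.84, 1.23 and 1.28 CPM in sh1, 1.15, 1.09, 1.71, 1.16 and 1.57 CPM in sh4 and 5.84, 5.51, 5.31, 5.41 and 5.58 CPM in NC. Its sh1 and sh4 values ran together as well. COL11A2 had 1.54, 1.32, 1.23, 1.54 and 0.822 CPM in sh1, 1.54, 0.983, 1.396, 1.16 and 1.13 CPM in sh4 and 4.799, 3.398, 3.28, 4.42 and 3.65 CPM in NC. COL28A1 had 0.872, 1.21, 1.23, 1.43 and 0.770 CPM in sh1, 0.714, 1.29, 0.983, 0.897 and 0.972 CPM in sh4 and 2.87, 2.99, 3.49, 3.203 and 3.81 CPM in NC. In the last 4 genes no sh1 or sh4 library reached up to an NC library, and the log2 fold changes ran between -2.05 for COL21A1 and -1.55 for COL28A1.

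The type IV pairs differed in the NPCs too. COL4A4 had 2.21, 2.85, 1.57, 1.79 and 2.62 CPM in sh1, 0.550, 1.501, 0.879, 0.950 and 1.13 CPM in sh4 and 6.83, 5.82, 7.497, 6.24 and 5.01 CPM in NC and fell with both hairpins (-1.50 and -2.63). Its head-to-head neighbour COL4A3 had 11, 20, 16, 17 and 8 counts in sh1, 2, 4, 3, 1 and 0 in sh4 and 23, 34, 20, 39 and 23 in NC. It fell with sh4 (-3.79, from few counts) and had -0.95 with sh1, which passed the call under library size or upper quartile scaling and without sh1 replicate 2 or NC replicate 1 or 5 (to -1.09). COL4A1 had 574, 590.4, 569, 555 and 583 CPM in sh1, 1151, 1144, 905, 1200.2 and 1322 CPM in sh4 and 439, 476, 463, 477 and 542 CPM in NC and rose with sh4 (1.26). COL4A5 and COL4A6 stayed close to each other with sh1, at log2 fold changes of 0.31 and 0.34 with sh1 and -0.09 and -0.38 with sh4, none of them called.

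COL3A1, COL1A2 and COL5A2, which rose with both organoid labels, had log2 fold changes over NC nearer 0 in the NPCs. COL3A1, the most abundant collagen per kilobase in all 3 NPC groups (621 ± 58.1 CPM per kilobase in sh1, 662 ± 51.7 in sh4 and 904 ± 41.7 in NC), had 4730.1, 4048, 4520.5, 4114 and 3735 CPM in sh1, 5019, 4235, 4687, 4442 and 4155 CPM in sh4 and 6468, 6005, 6352, 6205 and 5754 CPM in NC. All sh1 and sh4 libraries lay below NC, at log2 fold changes of -0.54 ± 0.06 and -0.45 ± 0.06 that did not reach the call. COL1A2 had 913 to 1027 CPM in sh1, 1118 to 1251 CPM in sh4 and 505 to 587 CPM in NC and rose with sh4 (1.12, or 0.98 and not called with library size scaling). COL5A2 had 1057 to 1463 CPM in sh1, 1103 to 1461 CPM in sh4 and 949 to 1116 CPM in NC and was not called, and COL2A1 had 672 to 802 CPM in sh1, 327 to 355 CPM in sh4 and 329.7 to 455 CPM in NC. The log2 fold changes of COL2A1 were 0.89 ± 0.07 with sh1, where every library lay above NC, and -0.20 ± 0.07 with sh4, neither of them called.

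Several collagens separated the hairpins in the NPCs. Between sh1 and sh4 11 of 29 were called, where 4.60% of all genes were. In sh1 5 were higher and 6 lower, where 2.18% and 2.42% of all genes were. COL6A3 had 153, 174, 152, 175 and 182 CPM in sh1, 663, 661, 558, 725 and 763 CPM in sh4 and 86.4, 93.04, 89.5, 96.1 and 83.3 CPM in NC. COL6A1 had 151, 142, 154, 171 and 166 CPM in sh1, 448, 458, 388, 468 and 509 CPM in sh4 and 248, 253, 239.8, 235 and 224 CPM in NC, so that sh1 lay below NC and sh4 above it. COL5A3 had 23.7, 22.2, 25.7, 25.6 and 22.4 CPM in sh1, 80.2, 73.4, 68.9, 74.6 and 74.4 CPM in sh4 and 20.2, 17.9, 19.2, 18.4 and 16.5 CPM in NC. COL6A3 and COL5A3 rose with sh4 (2.91 and 2.01), while COL6A1 stayed under the call with both hairpins (-0.61 and 0.92). On the log2 scale, sh1 over sh4, these 3 genes differed by -2.01 ± 0.07, -1.53 ± 0.06 and -1.63 ± 0.06, and COL12A1 by -2.08 ± 0.07. COL10A1, known from growth plate cartilage, had 0.939, 1.15, 1.01, 1.33 and 1.39 CPM in sh1, 7.97, 7.24, 5.27, 8.82 and 9.45 CPM in sh4 and 0.678, 0.618, 0.510, 1.05 and 0.522 CPM in NC and rose with sh4 (3.50), a difference between hairpins of -2.71 ± 0.18. COL5A1 had 85.5 to 101 CPM in sh1, 215 to 278 CPM in sh4 and 66.5 to 82.2 CPM in NC, rose with sh4 (1.77) and was lower in sh1 than in sh4 (-1.44), while COL2A1, COL4A3, COL4A4, COL9A2 and COL14A1 were higher in sh1, COL4A4 by 1.13 and under the call without sh4 replicate 1.

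The lead genes of the other classes showed smaller steps. COL7A1 had 91.2, 88.1, 96.3, 91.3 and 87.1 CPM in sh1, 128, 113, 83.2, 118 and 124 CPM in sh4 and 144, 147, 144, 135 and 155 CPM in NC and was not called. COL26A1 had 50.7, 46.4, 57.9, 56.1 and 57.1 CPM in sh1, 41.9, 44.9, 32.7, 43.6 and 44.3 CPM in sh4 and 23.3, 23.1, 21.8, 21.4 and 19.7 CPM in NC, and rose with sh1 (1.30). Its sh4 value of 0.92 reached 1 without the low sh4 replicate 3. COL25A1, a transmembrane collagen known from neurons, had 2.62, 2.63, 3.24, 2.099 and 1.95 CPM in sh1, 2.86, 2.48, 2.59, 2.43 and 2.27 CPM in sh4 and 2.14, 0.875, 1.67, 1.05 and 0.835 CPM in NC. It stood just under the call with both hairpins (0.94 and 0.95) and passed it with both without NC replicate 1 (1.21 and 1.22) or NC replicate 3, with sh1 also without sh1 replicate 4 or 5, and without NC replicate 1 the number of collagens that rose with both hairpins was 5 in place of 3. COL9A3 rose with sh1 (1.48) and had 0.92 with sh4, which reached 1.06 without NC replicate 1. COL9A1 had 14.1 to 16.6 CPM in sh1, 8.02 to 12.1 CPM in sh4 and 10.96 to 13.6 CPM in NC, and COL9A2 8.63 to 12.01 CPM in sh1, 4.45 to 5.27 CPM in sh4 and 5.92 to 7.79 CPM in NC, neither called over NC. COL8A2 had -0.84 with sh1, which reached -1.02 without sh1 replicate 3, and -0.36 with sh4.

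**Figure D4:**
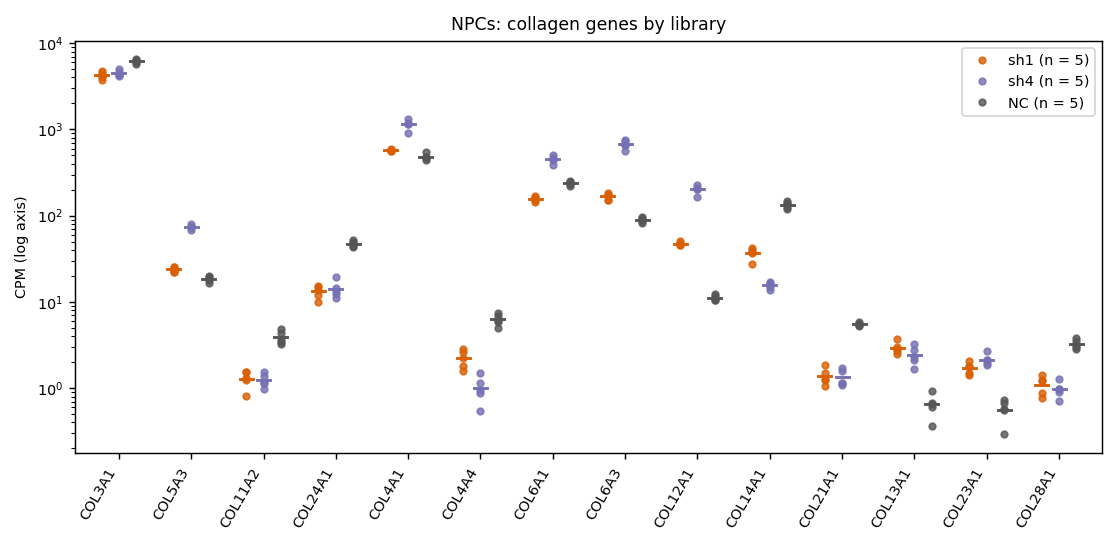
CPM on a log axis of 14 collagen genes in the NPCs, one point for each of 5 libraries and a bar at the mean, in the order sh1 (orange), sh4 (purple) and NC (grey). COL12A1, COL13A1 and COL23A1 lie above NC with both hairpins, COL14A1, COL24A1, COL21A1, COL11A2, COL4A4 and COL28A1 lie below it, and COL6A1 lies below NC with sh1 and above it with sh4.

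The systems were compared directly in one fit over the genes listed in both tables. The difference was the NPC change, averaged over sh1 and sh4 against NC, less the organoid change. Of the 30 collagens tested, 12 had a lower and 1 a higher change in the NPCs, where 20.8% and 13.7% of all 10034 genes did. COL14A1 differed by -5.87 ± 0.20 on the log2 scale, COL21A1 by -4.63 ± 0.19, COL8A2 by -4.07 ± 0.28 and COL3A1 by -3.95 ± 0.14 (edgeR's quasi-likelihood test, adjusted p = 2.13e-17, 3.68e-16, 4.18e-12 and 3.61e-17). COL14A1 and COL21A1 had opposite calls in the systems, lower with both hairpins in the NPCs and higher with both labels in the organoids. COL6A5, which was not tested in the NPCs alone, had 1, 2, 0, 0 and 2 counts in sh1 NPCs, 3, 3, 2, 0 and 0 in sh4 NPCs and 13, 10, 12, 6 and 11 in NC NPCs, the reverse order of its organoid counts. COL5A2 differed by -1.97 ± 0.14 and COL1A2 by -1.79 ± 0.13. COL12A1 differed by 0.23 ± 0.22 (95% interval -0.23 to 0.69). COL23A1 was not called, and its difference was so small that a standard error taken from fold change and test statistic is unreliable. No interval is therefore given for COL23A1. No difference between systems was detected for these 2 genes. COL13A1, which like these rose with both hairpins in each system, differed by 0.74 ± 0.27 (95% interval 0.18 to 1.30, edgeR, adjusted p = 0.0154), a higher change in the NPCs that did not reach the fold of the call. The systems were also deposited as separate tables and differ in the cells, the number of libraries and the selection of listed genes, which cannot be told apart from the tissue.

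Genes for making, binding and removing collagen were taken from lists. Of 22 genes for folding, modification and secretion, 6 rose with both organoid labels (10.2% of all genes tested), 14 with sh4 (20.0% of all genes), and none fell. FKBP10, a chaperone of type I procollagen, had 369 ± 7.62 CPM with sh1, 489 ± 31.02 CPM with sh4 and 171 ± 6.13 CPM with NC (SD, n = 3 each). PLOD1, which hydroxylates lysines of the helix, had 283 ± 12.2 CPM with sh1, 372 ± 38.9 CPM with sh4 and 99.2 ± 11.8 CPM with NC. FKBP14 had log2 fold changes of 1.30 and 1.80, and P3H1, a prolyl hydroxylase, rose with sh4 (1.18) and had 0.96 with sh1. In the NPCs 1 of 18 listed rose with both hairpins, a share near the 4.62% of all genes. It was SEC24D, a coat protein of the vesicles that export procollagen (1.23 and 1.31). PPIB and P4HA1 had 0.80 and 0.85 with sh1 and 0.88 and 0.81 with sh4 in the NPCs, and CREB3L1, a transcription factor known to act on type I collagen genes, rose with sh4 (1.25) and had 0.97 with sh1.

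Of 14 genes for processing and cross-linking, 7 rose with both organoid labels and none fell (10.2% and 6.18% of all genes). PCOLCE, which enhances removal of the carboxyl propeptide, had 163 ± 27.7 CPM with sh1, 205 ± 24.6 CPM with sh4 and 19.9 ± 0.243 CPM with NC, log2 fold changes of 3.03 and 3.36. BMP1, the protease that removes it, had 1.49 and 1.80, and the lysyl oxidases LOXL4 (2.14 and 2.75) and LOXL1 (1.17 and 1.16) rose as well. In the NPCs, where 4.62% of all genes rose and 8.48% fell with both hairpins, 1 of 10 listed rose with both, PCOLCE2 (1.02 and 1.46), and 1 fell with both, TLL1, a propeptide protease related to BMP1 (-1.80 and -1.61). ADAMTS14, an amino propeptide protease, fell with sh1 (-1.16) and had -0.93 with sh4, and LOXL2 (0.39 and 0.64) and ADAMTS3 (0.28 and 0.28) were not called.

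Among collagen receptors, 4 of 10 tested rose and 1 fell with both organoid labels (10.2% and 6.18% of all genes). ITGA1, the integrin chain that binds type IV collagen, had 86.5 ± 5.73 CPM with sh1, 74.2 ± 6.99 CPM with sh4 and 4.92 ± 1.16 CPM with NC. ITGA11, an integrin chain for fibrillar collagen, had 18.5 ± 2.82 CPM with sh1, 37.95 ± 6.404 CPM with sh4 and 2.05 ± 0.295 CPM with NC, and the tyrosine kinase receptor DDR2 had 183 ± 35.6 CPM with sh1, 181 ± 32.1 CPM with sh4 and 18.04 ± 5.53 CPM with NC. The receptor that fell was ADGRG1, a receptor of neural progenitors for COL3A1, with 41.3 ± 14.1 CPM with sh1, 32.9 ± 4.76 CPM with sh4 and 158 ± 16.5 CPM with NC (-1.93 and -2.26). In the NPCs ADGRG1 had 14.3 ± 1.21 CPM in sh1, 25.2 ± 2.71 CPM in sh4 and 49.8 ± 10.5 CPM in NC and fell with sh1 (-1.80), with -0.98 in sh4. ITGA11 rose with both NPC hairpins (1.52 and 3.00), 1 of 8 listed beside 4.62% of all genes, and ITGA10, an integrin chain of cartilage cells, fell with both (-1.03 and -1.30). ITGA1 rose with sh4 (1.55), and their shared partner ITGB1 was not called (0.59 and 0.64).

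Of the genes for breakdown and its inhibitors, 8 of 13 tested rose with both organoid labels (10.2% of all genes). FAP, a protease of activated fibroblasts, had 31.0 ± 5.31 CPM with sh1, 27.6 ± 4.41 CPM with sh4 and 0.443 ± 0.300 CPM with NC. MMP14, a membrane-bound collagenase, had log2 fold changes of 1.37 and 1.67, MMP2 of 1.86 and 1.49, and the inhibitor TIMP3 of 1.96 and 2.23. In the NPCs 2 of 13 rose and 1 fell with both hairpins (4.62% and 8.48% of all genes). MMP2, a gelatinase, had 169.7 ± 13.3 CPM in sh1, 192 ± 31.2 CPM in sh4 and 58.9 ± 4.98 CPM in NC (SD, n = 5 each) and rose, and TIMP2 had 119.6 ± 3.17 CPM in sh1, 146 ± 10.7 CPM in sh4 and 297 ± 12.8 CPM in NC and fell. TIMP1 rose with sh4 (1.27), and MMP16 had 0.40 with sh1 and 0.78 with sh4.

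Of 15 basement membrane partners, 4 rose with both organoid labels and 10 with sh4 (10.2% and 20.0% of all genes). With sh1 6 rose and 1 fell (12.1% and 7.92% of all genes). LAMB1, a laminin chain, had 459.6 ± 61.98 CPM with sh1, 899 ± 113 CPM with sh4 and 180.2 ± 14.9 CPM with NC. LAMA2, a laminin chain of muscle and meninges, had 36.6 ± 1.02 CPM with sh1, 143 ± 18.2 CPM with sh4 and 15.7 ± 2.604 CPM with NC, while LAMB2 and LAMC1 rose with sh4 (1.68 and 1.52) and had 0.97 and 0.85 with sh1. In the NPCs LAMA2 had 13.9 ± 1.37 CPM in sh1, 18.9 ± 0.690 CPM in sh4 and 33.1 ± 4.47 CPM in NC and fell with sh1 (-1.25), with -0.81 in sh4. Of the 12 listed there, none rose and 1 fell with both hairpins, beside 4.62% and 8.48% of all genes. With sh1 2 fell (12.1% of all genes), and with sh4 2 rose and 1 fell (6.55% and 11.6%). LAMC1 (0.49 and 0.58), LAMB2 (-0.57 and -0.48) and NID2 (0.80 and 0.53) were not called.

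Mesenchyme and choroid plexus markers had higher sums in the organoids labelled sh1 and sh4 than in NC, while endothelial sums overlapped NC with sh1, and pericyte and smooth muscle sums overlapped NC with sh4. Of the 14 mesenchyme and fibroblast markers 10 rose with both labels and none fell, where 10.2% of all genes tested rose and 6.18% fell with both. The same shares stand beside the choroid plexus, endothelial, and pericyte and smooth muscle counts below. The summed level of the mesenchyme and fibroblast markers was 3684 to 4297 CPM with sh1, 6896 to 8454 CPM with sh4 and 629.8 to 825 CPM with NC. The collagen-binding proteoglycans DCN and LUM had 882 ± 80.5 and 776 ± 89.6 CPM with sh1, 2483 ± 243 and 2513 ± 361 CPM with sh4, and 102 ± 28.97 and 213 ± 36.2 CPM with NC, and none of the 14 markers was at 0 in any organoid library. Of 7 choroid plexus markers 5 rose and 1 fell with both labels, and their sum was 911 to 2028 CPM with sh1, 4133 to 8989 CPM with sh4 and 127 to 263 CPM with NC. Of 8 endothelial markers 3 rose with both labels (sum 155 to 243 CPM with sh1, 467 to 662 CPM with sh4 and 144 to 183 CPM with NC), and of 8 pericyte and smooth muscle markers 3 rose (sum 287 to 316 CPM with sh1, 203 to 239.9 CPM with sh4 and 237 to 283 CPM with NC).

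Neural progenitor, neuron and pluripotent cell markers had lower sums in the organoids labelled sh1 and sh4 than in NC. Of 9 neural progenitor markers 6 fell with both organoid labels (6.18% of all genes), and their sum was 2734 to 2833 CPM with sh1, 1275 to 1706 CPM with sh4 and 3412 to 3948 CPM with NC. The 8 neuron markers summed to 1045 to 1419.7 CPM with sh1, 192 to 820.0 CPM with sh4 and 2548 to 2776 CPM with NC, and 1 fell with both labels and 7 with sh4 (6.18% and 15.5% of all genes). All 7 pluripotent cell markers fell with both labels (6.18% of all genes), with a sum of 71.4 to 77.7 CPM with sh1, 71.4 to 97.5 CPM with sh4 and 673 to 964 CPM with NC. Markers with 0 counts in at least 1 organoid library were TBXT, NOTO and PRDM14. Neural crest markers summed to 492 to 672 CPM with sh1, 96.4 to 393 CPM with sh4 and 277 to 406 CPM with NC, and those of notochord and mesoderm to 4.44 to 5.36 CPM with sh1, 2.41 to 2.72 CPM with sh4 and 16.9 to 25.97 CPM with NC. The part of these cell type markers in the collagen levels was not tested.

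In the NPCs 9 of the 14 mesenchyme markers were listed, of which 4 rose with both hairpins and 8 with sh4 (4.62% and 6.55% of all genes), and their sum was 865 to 1134 CPM in sh1, 1099 to 1379 CPM in sh4 and 784 to 835 CPM in NC. Of the progenitor markers 7 of 9 were listed, with a sum of 1958 to 2214 CPM in sh1, 2844 to 3336 CPM in sh4 and 2171 to 2344 CPM in NC. The sum and the calls differed with sh1. Of the 6 progenitor markers tested, 4 rose and none fell with both hairpins (4.62% and 8.48% of all genes), and 1 fell with sh4 (11.6%). The 7 pluripotent cell markers were all listed, with a sum of 1651 to 1761 CPM in sh1, 1503 to 1599 CPM in sh4 and 998 to 1079 CPM in NC, and 4 rose and 1 fell with both hairpins (4.62% and 8.48% of all genes). The endothelial markers, 7 of 8 listed, summed to 134 to 154 CPM in sh1, 105 to 158 CPM in sh4 and 58.95 to 69.4 CPM in NC, with both hairpins above NC, although 1 of the 7 rose and 2 fell with both (4.62% and 8.48% of all genes). The 2 listed of 7 neural crest markers summed to 119 to 125 CPM in sh1, 164 to 191 CPM in sh4 and 64.2 to 75.3 CPM in NC, again above NC. The 5 listed of 8 neuron markers summed to 177 to 254 CPM in sh1, 349.5 to 451 CPM in sh4 and 371 to 476 CPM in NC, where sh1 lay below NC and sh4 overlapped it. For pericytes and smooth muscle 7 of 8 markers were listed and for cartilage 6 of 8. Pericyte and smooth muscle sums were 636 to 777 CPM in sh1, 567 to 685 CPM in sh4 and 497 to 584 CPM in NC, and cartilage sums 32.4 to 35.3 CPM in sh1, 37.4 to 42.6 CPM in sh4 and 29.6 to 33.2 CPM in NC. Of the 7 pericyte and smooth muscle markers none rose and 1 fell with both hairpins. Of the 6 cartilage markers 1 rose and 2 fell with both (4.62% and 8.48% of all genes). Of the epithelial markers 7 of 8 were listed, of the choroid plexus markers 5 of 7, and of the notochord and mesoderm markers 3 of 7. Epithelial sums were 245 to 279 CPM in sh1, 192 to 251 CPM in sh4 and 190.0 to 213 CPM in NC, and choroid plexus sums 103 to 108 CPM in sh1, 74.3 to 83.6 CPM in sh4 and 111 to 119.6 CPM in NC. Of the 7 epithelial markers none rose and 2 fell with both hairpins. Of the 4 choroid plexus markers tested 1 rose and none fell with both (4.62% and 8.48% of all genes). Sums and calls thus differed in several lists. Notochord and mesoderm sums were 0.872 to 1.43 CPM in sh1, 1.03 to 1.73 CPM in sh4 and 2.61 to 3.65 CPM in NC. The part of these markers in the NPC collagen levels was not tested.

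**Figure D5:**
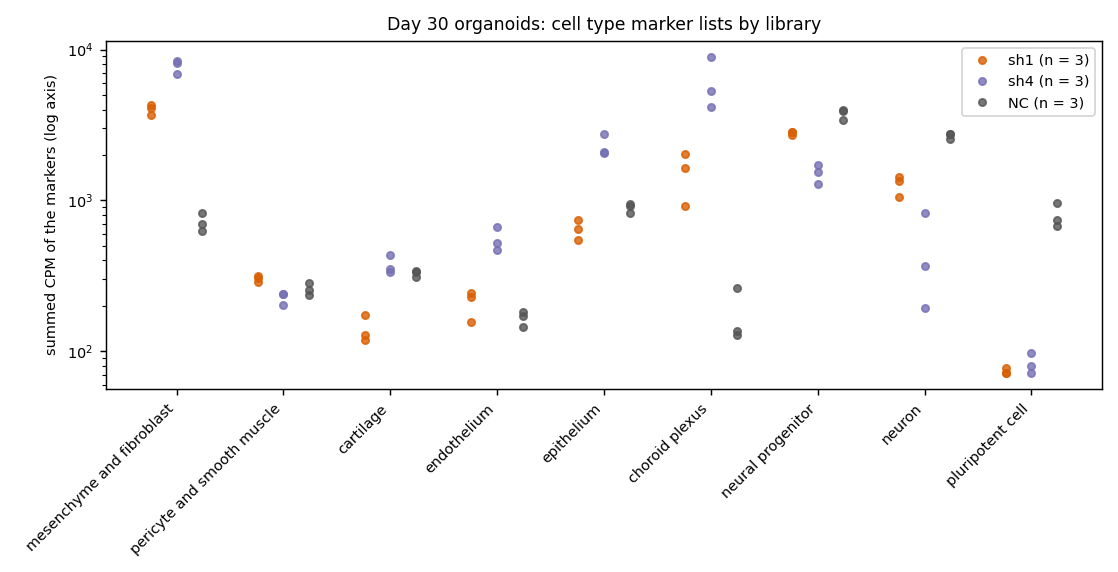
Summed CPM on a log axis of 9 cell type marker lists in the organoids, one point for each library, in the order sh1 (orange), sh4 (purple) and NC (grey). The mesenchyme and choroid plexus sums lie above NC in every library labelled sh1 or sh4, and the neural progenitor, neuron and pluripotent cell sums lie below it.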

How the data were processed

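Expression was read from the count tables the authors deposited, 1 per system. The submitters' processing notes name STAR, featureCounts and build GRCh38.p13. Versions, settings and strand use are not given in the sources used here. What the authors deposited are expected counts per gene and library, as fractions occur (82.4% of NPC and 91.0% of organoid values were whole). They were rounded before testing. Totals were 12.7 to 20.2 M counts of listed genes in the NPCs and 15.9 to 18.9 M in the organoids.

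Genes were filtered with filterByExpr (minimum count 10), scaled by TMM and tested with edgeR 4.0.16 (quasi-likelihood test, limma 3.58.1, R 4.3.3) over the 3 groups of a system, with Benjamini-Hochberg adjustment over all tested genes. CPM use the TMM-scaled library. Calls needed an adjusted p under 0.05 and a log2 fold change of at least 1 in size. DESeq2 1.42.0, other scalings, no filter, 2-group fits, a replicate block and leaving out each library were alternatives. The test was checked on simulated counts. All pairs of replicates differed by more than counting noise (chi-square over its degrees of freedom 2.65 or more), and each library was counted as 1 sample. Levels per kilobase use the GENCODE 29 exon union, and a table of gene names gave symbols for 61445 of the 61544 organoid identifiers.

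Collagen values in every library are given for members called the same way with both hairpins (up to 14 per system), the most abundant member of each class, up to 4 members called between sh1 and sh4 and up to 6 that differ between systems; of each other list up to 4 genes with the smallest adjusted p over both hairpins. Further collagens, TLL1, ITGA10, DCN and LUM were named after their values were seen. The members and lists were chosen with earlier results of these data known.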

Additional observations from a re-analysis of the deposited data

Results flagged for a closer look

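The change with the hairpins differed between NPCs and organoids in 13 collagens, by the test of the difference itself (edgeR's quasi-likelihood test, adjusted p under 0.05 and at least 1 on the log2 scale, NPC change minus organoid change). COL14A1 (-5.87), COL21A1 (-4.63), COL8A2 (-4.07), COL3A1 (-3.95), COL5A2 (-1.97), COL1A2 (-1.79) and COL5A1 (-1.21) had a lower change in the NPCs. COL24A1 (-2.56), COL28A1 (-2.74), COL11A2 (-2.24) and COL4A4 (-1.64) had a lower change in the NPCs as well. Like COL14A1 and COL21A1, they fell there with both hairpins. COL6A5 (-6.17) had at most 3 counts in any sh1 or sh4 NPC library and in any organoid library labelled NC, so its size rests on few counts. COL10A1 (2.69) had a higher change in the NPCs, and its organoid counts were at most 5 in any library.

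In the NPCs, COL26A1 in sh4 replicate 3 stood apart from the other sh4 libraries with 32.7 CPM, below their lowest value of 41.9 CPM. It was 1 of 87 groups of 5 libraries examined, and chance marks about 1 group in 20.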

How the results depend on the processing

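Scaling by library size alone had the widest effect. It moved the median log2 fold change of all genes to -0.28 in the organoids labelled sh4 over NC, to 0.26 between sh1 and sh4 and to -0.03 and -0.11 in the NPCs (sh1 and sh4 over NC), and the share of higher genes among the calls to 23.7% in place of 34.3% for sh1 NPCs. Under it collagens called lower with sh4 in the organoids numbered 2 in place of 1, those called between sh1 and sh4 8 in place of 14, and those lower in sh1 2 in place of 8. With the label sh4 the signs of COL11A1 (-0.15), COL26A1 (-0.0698) and COL28A1 (-0.11), none of them called, turned under it. COL4A4 with the label sh4, at -0.01, turned to 0.0033 with DESeq2, 0.0051 with DESeq2's size factors in edgeR and 0.0021 with no filter. For these turns the cause was not tested. The other collagen counts stayed within 1.5 times of the main count under each of these settings and with 2-group fits.

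With single libraries left out, the count of collagens with a higher change in the NPCs than in the organoids was 0 to 2, with 0 without organoid NC replicate 2, where COL10A1 (0.93 to 4.44) lost its call, and 2 without NPC NC replicate 1; that of collagens higher with both hairpins in the NPCs was 3 to 5. Signs turned for uncalled genes only, in COL11A1 (-0.19 to 0.33), COL11A2 (-0.83 to 0.73), COL24A1 (-0.30 to 0.66) and COL4A4 (-0.33 to 0.22) with the label sh4 and COL19A1 (-0.29 to 0.55) with sh1. Calls between sh1 and sh4 of COL6A2, COL6A6, COL11A1 and COL14A1 in the organoids and of COL4A4 in the NPCs fell under a log2 difference of 1 in at least 1 such fit.

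Deviations of same-numbered libraries correlated above 0.1 in 9 of 15 NPC pairs (-0.10 to 0.39), among them all pairs of replicates 1 and 5, and in 0 of 9 organoid pairs (-0.16 to 0.04). The main fits did not pair the libraries by number in either system. For the NPCs they thus leave out the correlation seen in these pairs, and a fit with a replicate block was run beside them. With the replicate block the difference between systems called 14 collagens in place of 13 (13 lower in place of 12), every other member count stayed equal, and COL19A1 with sh1 was at 0.0925 in place of -0.01. Genes near a few counts per library, such as COL4A3, COL6A5 and COL10A1 in the organoids, are limited by depth.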
